A study of Mus musculus with 2 samples.

Results

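The LRRC8 genes Lrrc8a to Lrrc8e encode the subunits of the volume-regulated anion channel. They were followed on 2 microarrays of mouse primary hepatocytes, liver parenchymal cells taken into culture, 1 from cells given G0s2 siRNA and 1 from cells given control siRNA. The genes were selected by name in the scanner tables, which gave 7 probes for 5 genes among 39424 probes kept, and the family was chosen because Lrrc8a was much higher with G0s2 siRNA on these arrays, so its values are a description. The G0s2 protein inhibits adipose triglyceride lipase, and the study asked what lowering it does to hepatocyte gene expression. Both cultures stood in medium with 10% serum and were transfected with 50 pmol of siRNA by means of a lipid reagent, and expression was measured 24 hours later from 0.5 ug of RNA. Strain, sex, age and number of mice, and the siRNA sequences, are not given in the sources used here. With a single array per group nothing could be checked against replicates, and no test was made.

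As background, a hepatocyte that swells, for instance on uptake of amino acids, opens this channel and lets chloride and small organic molecules such as taurine leave, and water follows. LRRC8A, also called SWELL1, is the subunit that every functional channel needs. It assembles with LRRC8B, LRRC8C, LRRC8D or LRRC8E, and these partners set what the channel conducts. Channels with LRRC8D pass larger uncharged molecules and some drugs, and channels with LRRC8C or LRRC8E carry the immune messenger cGAMP.

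Lrrc8a was read by 2 probes in different places of its transcript, and so was Lrrc8e. The stretches below are shown because the probes of each gene gave different values. Capitals mark runs of at least 14 bases that also occur, on either strand, in probes of other genes on the array.
Lrrc8a, position 1641, whole probe: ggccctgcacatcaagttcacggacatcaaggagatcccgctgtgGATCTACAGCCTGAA
Lrrc8a, position 4120, bases 31 to 60 of the probe: tggaaatactgcacaCTAGCCTTTGACAAc
Lrrc8e, position 3126, bases 30 to 59 of the probe: CTGAGCATGGTGGCACACGCCTTTAATTCC
Lrrc8e, position 3818, bases 29 to 58 of the probe: GGGTGCTTAATAAACgagaacggtaatttc
Each probe is 60 bases long and is printed 5′ to 3′. On mm9, the build of the scanner tables, all 4 lie on the plus strand. The Lrrc8a probes (NM_177725) are at chr2:30112183-30112242 and chr2:30119177-30119236. They stand 2479 bases apart in the transcript and 6994 in the genome, so 4515 bases of intron lie between them and they fall in different exons. The scanner table assigns the earlier probe to 3 Ensembl transcripts and the later one to 2 of these. The Lrrc8e probes (NM_028175) are at chr8:4236719-4236778 and chr8:4237411-4237470, 692 bases apart both in the transcript and in the genome, so no intron lies between them. Exons and UTRs of that build were not looked up.

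Levels below are log2 signals relative to the 75th percentile of the same array, and each difference is the level with G0s2 siRNA minus that with control siRNA. The error is the scanner's own estimate for the spot, carried to the log2 scale. For bright spots it is a nearly fixed share of the signal, so 0.14 per level and 0.20 per difference recur. The error covers neither variation between cultures nor between labellings. The level of one probe is not comparable with that of another, because probes bind with different strength.

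Lrrc8a, the obligatory subunit, was higher with G0s2 siRNA by both of its probes. The brighter probe, at position 4120, had a level of 5.49 ± 0.14 on the G0s2 siRNA array and 2.75 ± 0.14 on the control siRNA array. The processed signal there was 32724 with G0s2 siRNA and 2819 with control siRNA, 11.6 times as high before the arrays were brought to a common scale. The difference was 2.74 ± 0.20, or 6.67-fold. It ranked 9 from the top among 14113 genes well above background on both arrays.

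The dimmer Lrrc8a probe, at position 1641, had a level of -0.80 ± 0.14 on the G0s2 siRNA array and -2.59 ± 0.16 on the control siRNA array. Its processed signal was 418 with G0s2 siRNA and 69.5 with control siRNA. The difference was 1.79 ± 0.21, or 3.46-fold. Both probes thus lay past 2-fold in the same direction, and their differences stood 0.95 ± 0.30 apart on the log2 scale.

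Of the 4 partner subunits, Lrrc8b, Lrrc8d and Lrrc8e stayed within 2-fold by their brightest probe, and Lrrc8c could not be measured. Lrrc8b, read by 1 probe (NM_001033550, position 2779, chr5:105915147-105915206 of mm9), had a level of -4.03 ± 0.20 on the G0s2 siRNA array and -4.44 ± 0.26 on the control siRNA array. Its signals, 44.4 with G0s2 siRNA and 19.3 with control siRNA, were close to the background, and the difference was 0.40 ± 0.33. Normexp background correction gave -0.31, but it adds an offset of 50, more than either signal. Because the arrays differ in scale, this pulls dim probes toward a shared negative difference, so that sign cannot decide the direction. With 1 dim probe and a difference near its error, no direction can be given for Lrrc8b.

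Lrrc8d, also read by 1 probe (NM_178701, position 3798, chr5:106244120-106244179), had a level of 1.59 ± 0.14 on the G0s2 siRNA array and 1.68 ± 0.14 on the control siRNA array. The difference of -0.10 ± 0.20 was smaller than the scanner error. Lrrc8c had 1 probe (NM_133897, position 2347, chr5:106037492-106037551), which was not well above background on either array, with signals of 8.29 with G0s2 siRNA and 8.11 with control siRNA, so it gives no fold.

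**Figure D1:**
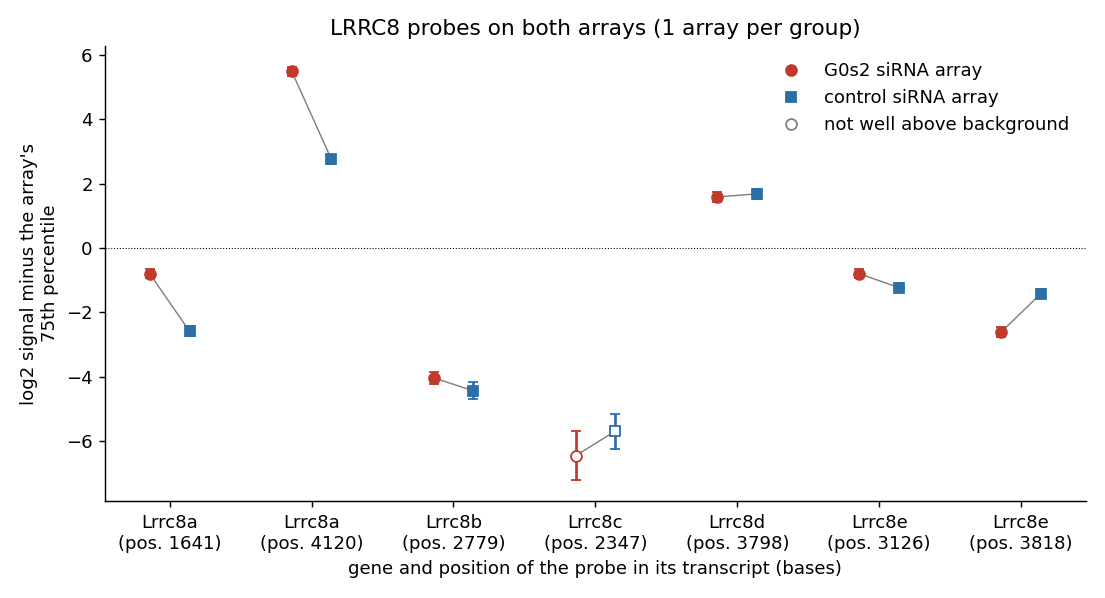
Level of each LRRC8 probe (log2 signal minus the array's 75th percentile) on the G0s2 siRNA array (red circles) and the control siRNA array (blue squares), with the scanner's error as bars. Both Lrrc8a probes were higher with G0s2 siRNA, the 2 Lrrc8e probes lay in opposite directions, and the open Lrrc8c symbols were not well above background. Heights are compared within a probe and not between probes.

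The 2 probes of Lrrc8e disagreed in sign. The probe at position 3126 had a level of -0.80 ± 0.15 on the G0s2 siRNA array and -1.23 ± 0.15 on the control siRNA array, a difference of 0.43 ± 0.21. The probe at position 3818 had a level of -2.61 ± 0.15 on the G0s2 siRNA array and -1.41 ± 0.15 on the control siRNA array, a difference of -1.20 ± 0.21, or 2.29-fold lower, and normexp left it at -0.93, short of 2-fold. The difference of the brighter probe shrank to 0.021 under normexp and to 0.12 with pixel medians, so Lrrc8e has no settled direction on these arrays.

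The sequences of these probes differ in how much they share with the rest of the array. The Lrrc8e probe at position 3126 shares runs of at least 14 bases with 11 probes of other genes, over 31 of its 60 bases, and its longest shared run is 24 bases. All 11 of those probes were well above background on both arrays, and their median difference was 0.17. The probe at position 3818 shares such a run with 1 probe, and the Lrrc8a probes at positions 1641 and 4120 share one with 4 and 1. For the only Lrrc8d probe, 45 of its 60 bases lie in runs shared with 3 probes of other genes, the longest of 16 bases. Among 986 probes taken at even steps through the array, 3.45% shared runs with 11 or more probes of other genes and the median was 1. Whether shared stretches contribute to the Lrrc8d or Lrrc8e signals was not tested.

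Disagreement between probes was set against other genes with at least 2 probes well above background on both arrays. In these 3376 genes the median gap between the differences of the 2 brightest probes was 0.27. A gap at least as wide as that of Lrrc8a occurred in 8.09% of them, and one at least as wide as that of Lrrc8e in 1.18%. Probes of opposite sign occurred in 29.7%. Among the 18 genes whose brightest probe was at least 4-fold higher with G0s2 siRNA, Lrrc8a included, the next brightest probe was at least 2-fold higher in 13, with a median difference of 1.57.

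**Figure D2:**
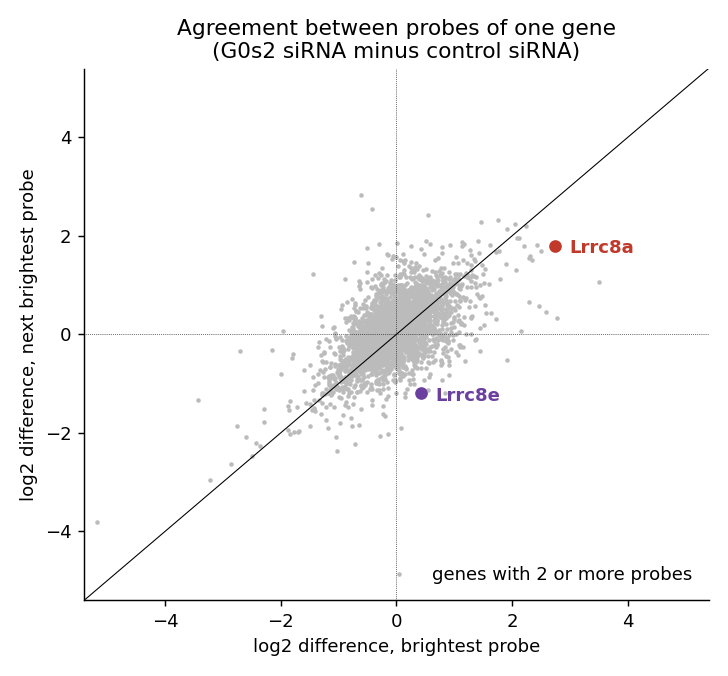
Log2 difference (G0s2 siRNA minus control siRNA) of the next brightest probe against that of the brightest probe, for 3376 genes with at least 2 probes well above background on both arrays. Lrrc8a lies in the upper right, at 2.74 and 1.79. Lrrc8e lies in the lower right quadrant, at 0.43 and -1.20.

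Counted by brightest probe, 1 of the 4 measured LRRC8 genes was at least 2-fold higher with G0s2 siRNA, against 4.81% of all 15412 measured genes. None of the 4 was at least 2-fold lower, against 5.46% of all genes. Since Lrrc8a chose the family, the count of members says nothing beyond that choice. Counted by probe, 2 of the 6 measured LRRC8 probes were at least 2-fold higher and 1 was at least 2-fold lower. The lower one was the Lrrc8e probe at position 3818, so the gene count for Lrrc8e depends on which probe stands for it. Of all 20894 probes well above background on both arrays, 4.78% were that much higher and 4.47% that much lower. In 1.9% of the genes with several probes, the 2 brightest were both at least 2-fold higher, as in Lrrc8a.

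**Figure D3:**
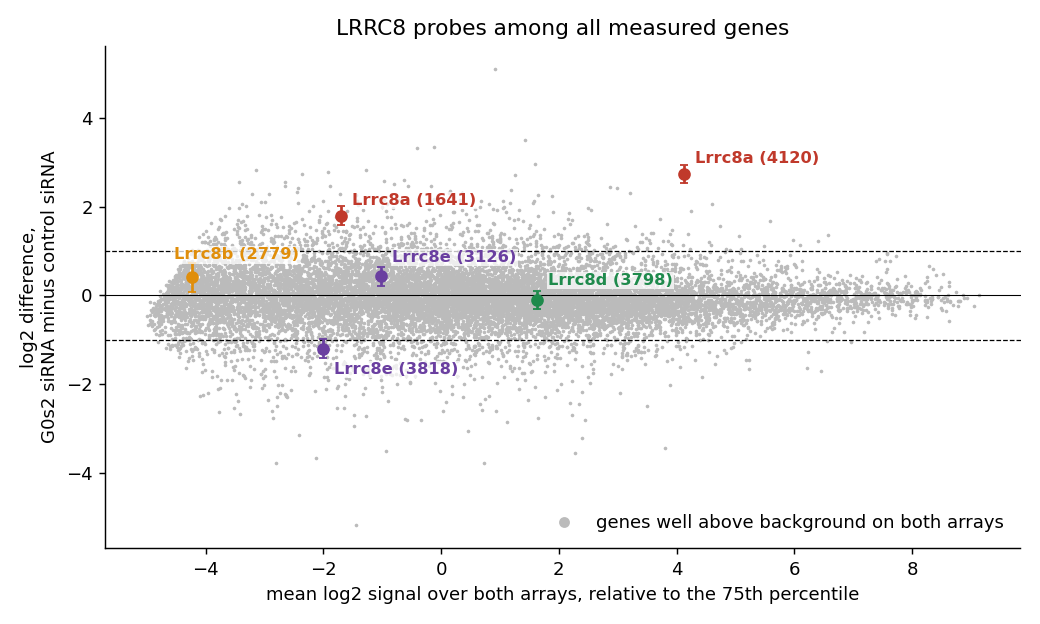
Log2 difference (G0s2 siRNA minus control siRNA) against the mean log2 level over both arrays, for 14113 genes by their brightest probe (grey) and for the 6 measured LRRC8 probes (coloured, with scanner error). Dashed lines mark 2-fold. Lrrc8a at position 4120 lies above most genes of similar level, and the probes of Lrrc8b and Lrrc8d lie inside the grey band.

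The bright Lrrc8a spot on the G0s2 siRNA array was read in another way than on the control siRNA array. Per the scanner tables, spots too bright for the main scan were taken from a scan at lower detector gain and scaled up. This held for the Lrrc8a probe at position 4120 on the G0s2 siRNA array only. Of 512 probes scaled in this way on that array alone, the median difference was 0.08 and the range -0.79 to 2.74, with Lrrc8a at the top. The probe at position 1641 was read from the main scan on both arrays and gave the 1.79 above, although its local background on the control siRNA array was marked as an outlier.

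The spots around each Lrrc8a probe on the slide were near 0. Within 10 rows and 5 columns, the median difference was 0.00 over 136 spots around the probe at position 4120 and -0.08 over 117 spots around the probe at position 1641. For probes at a like position in their transcript the median difference was 0.05 over the 500 nearest to position 4120 and -0.05 over the 500 nearest to position 1641.

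Bringing the arrays to a common scale in other ways left the Lrrc8a probe at position 4120 between 2.68 and 2.84, apart from centring on spike-in controls. The 8 spike-in probes used gave raw log2 differences between the arrays from -0.98 to -0.08. Their mean put the median of all genes at 1.37, against -0.03 in the reported values. Relative to that median the same probe lay at 2.80, the probe at position 1641 at 1.85, and the Lrrc8e probe at position 3818 at -1.14. In the authors' deposited series table, the Lrrc8a differences were 2.82 and 1.75. Normexp correction left the bright Lrrc8a probe at 2.75 and gave 1.23 at position 1641.

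**Figure D4:**
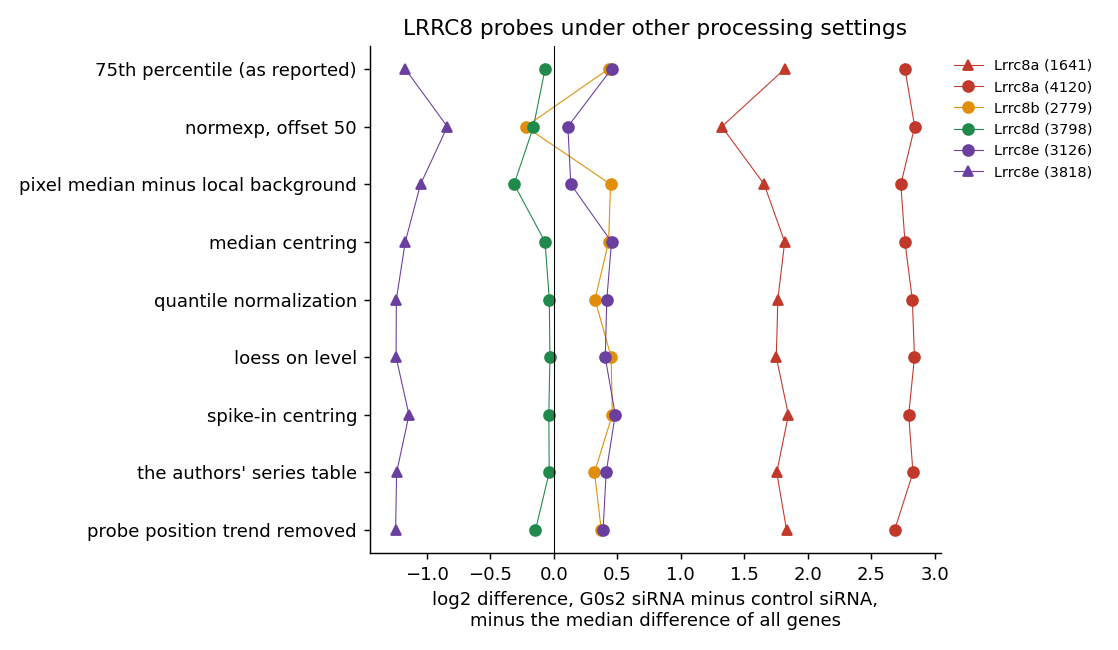
Log2 difference (G0s2 siRNA minus control siRNA) of the 6 measured LRRC8 probes, minus the median difference of all genes, under the reported processing (top row) and 8 other settings. The 2 Lrrc8a probes lay above 1.3 in every row, the Lrrc8e probe at position 3818 lay below -0.8 in every row, and Lrrc8b changed side under normexp.

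G0s2 itself, which checks the labels, had a level of -2.83 on the G0s2 siRNA array and -0.13 on the control siRNA array, a difference of -2.70 ± 0.21. Hepatocyte markers were measured in full, 7 of 7, with a median level of 6.35 on the G0s2 siRNA array and 5.71 on the control siRNA array. The median of their differences was 0.31, with 6 of 7 higher with G0s2 siRNA. Of these, Hnf4a was past 2-fold, at 1.04 ± 0.20. Markers of other cells were also present, with 5 of 6 cholangiocyte, 7 of 7 endothelial, 8 of 8 macrophage and 2 of 6 stellate cell markers measured, and 5 of 8 of leukocytes and red cells. All 5 measured cholangiocyte markers were lower with G0s2 siRNA, at a summed log2 level of 2.10 on the G0s2 siRNA array and 2.94 on the control siRNA array. Their median difference was -0.94. With spike-in centring it was 0.48, still below the median of 1.37 for all genes. That centring adds the same amount to every difference of genes well above background on both arrays. With G0s2 siRNA the summed levels were 2.85 for endothelial, 3.66 for macrophage, -2.50 for stellate cell and 1.13 for leukocyte and red cell markers, and with control siRNA they were 3.25, 3.78, -2.61 and 1.77 for the same lists. These sums rest on the brightest probes, and median differences over the genes were 0.77 for endothelial (4 of 7 higher with G0s2 siRNA), 0.25 for macrophage (5 of 8 higher), 0.09 for stellate cell and -0.63 for leukocyte and red cell markers. The brightest endothelial probe, of Kdr, differed by -0.51 ± 0.20, while the other Kdr probe gave 1.27. Normexp gave -0.11 for the endothelial and -0.31 for the stellate cell median, but its offset of 50 pulls dim probes toward a shared negative difference. Spike-in centring gave 0.60 for leukocytes and red cells, also below its median of all genes. Epcam, Lrat, Pdgfrb, Des, Reln, Ptprc, Ms4a1 and S100a8 were not well above background on either array. The part of these cells in the LRRC8 values was not tested, and in bulk RNA fewer cells of a type and less RNA per cell cannot be told apart.

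The 4 genes with the difference closest to that of the bright Lrrc8a probe, over these 2 arrays, were Slc7a2, Arpc1a, Exoc4 and Homer2. Slc7a2, a transporter of cationic amino acids, differed by 2.73 ± 0.25 and Arpc1a, a subunit of the actin-nucleating ARP2/3 complex, by 2.71 ± 0.20. Exoc4, of the exocyst, differed by 2.78 ± 0.23 and the scaffold gene Homer2 by 2.82 ± 0.32. All 4 lay at most 0.085 from Lrrc8a, but the other probe of Exoc4 gave 0.34. Normexp gave 1.39 for Slc7a2, 1.83 for Exoc4 and 1.12 for Homer2, but 2.75 for the brighter Arpc1a. Its offset of 50 shrinks the differences of dim probes. The closeness of Slc7a2, Exoc4 and Homer2 to Lrrc8a thus depends on how dim signals are treated.

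Genes next to Lrrc8a on its chromosome did not share a change of its size. On one side, Kyat1, which encodes a kynurenine aminotransferase, differed by 0.87 ± 0.20, and its other probe by 0.69. Spout1, the next gene out, differed by 0.09 ± 0.20. On the other side, Phyhd1 differed by -0.07 ± 0.20, with 0.47 by its other probe, and Dolk, the dolichol kinase gene, by -0.51 ± 0.20. None of these 4 neighbours passed 2-fold in either direction.

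Chloride channels of other families had a median difference of 0.10, against -0.03 for all genes, with 22 of 36 measured, 2 past 2-fold upward with G0s2 siRNA and 1 past 2-fold downward. The shares of all genes, 4.81% upward and 5.46% downward, are the background for this and the following lists. Pacc1, the acid-activated anion channel gene, had a level of 0.68 on the G0s2 siRNA array and -1.79 on the control siRNA array. Its difference was 2.47 ± 0.21, although its other probe gave 0.57. Ano1, a calcium-activated chloride channel gene, had a level of -1.31 on the G0s2 siRNA array and -2.64 on the control siRNA array, a difference of 1.33 ± 0.22 that normexp reduced to 0.80. Ttyh2, of the tweety family, was lower by both probes, at -1.18 ± 0.20 and -0.86. Clns1a, once proposed as a swelling-activated channel, differed by 0.18 ± 0.20. Another probe of Clcn6 gave 1.51, against 0.52 ± 0.23 by its brightest.

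Cotransporters and kinases that restore cell volume had a median of 0.03, with 12 of 16 measured, 0 past 2-fold upward and 1 downward. Wnk4, a kinase gene that regulates these cotransporters, differed by -1.13 ± 0.22, and by -0.79 under normexp and -0.88 with pixel medians. Slc12a2, the sodium-potassium-chloride cotransporter gene used in volume increase, differed by 0.02 ± 0.20. Wnk1, which senses chloride and crowding, differed by 0.90 ± 0.20, although its other probe gave -0.01.

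Genes that supply organic osmolytes, the cargo the channel releases, had a median of -0.09 with all 13 measured, 1 past 2-fold upward and 2 downward. Cdo1, which makes the precursor of taurine from cysteine, had a level of 4.59 on the G0s2 siRNA array and 3.20 on the control siRNA array, a difference of 1.39 ± 0.20. Slc6a6, the taurine transporter gene, differed by -0.13 ± 0.20, and Csad, the next step after Cdo1, by -0.32 ± 0.20. Akr1b3, the aldose reductase gene of sorbitol synthesis, differed by -1.10 ± 0.20, with -1.04 by its other probe and -0.87 under normexp. Bhmt, which consumes betaine, lay just past 2-fold lower, and its other probes gave -1.02 and -1.13, while quantile normalization put it at -0.90. Nfat5, the transcription factor of the hypertonic response, differed by 0.02 ± 0.24. Chdh, of the same list, differed by -0.77 ± 0.21 by its brightest probe, and its other probes gave -1.87 and -1.45.

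**Figure D5:**
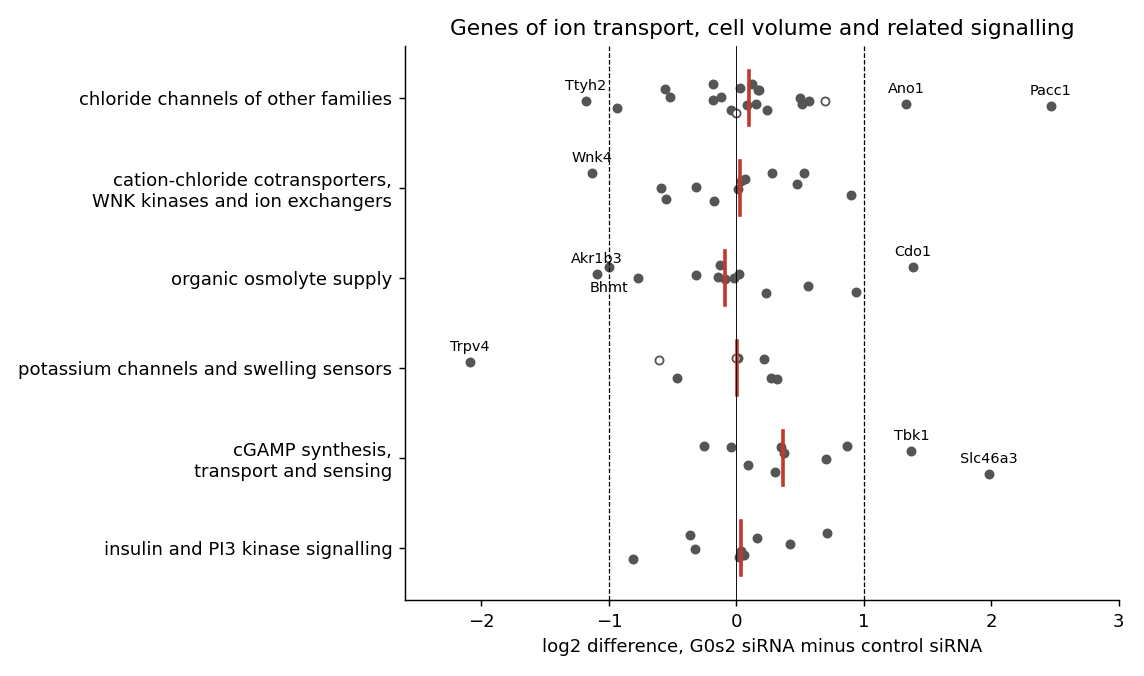
Log2 difference (G0s2 siRNA minus control siRNA) of each measured gene in 6 lists, by its brightest probe. Filled points were well above background on both arrays, open points on 1 array (bounds), red bars are list medians and dashed lines mark 2-fold. Medians lay between -0.09 and 0.36, and genes past 2-fold are named.

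Potassium channels and swelling sensors had a median of 0.01, with 8 of 12 measured, 0 past 2-fold upward and 1 downward. That gene was Trpv4, a cation channel gene opened by swelling, with a level of -4.81 on the G0s2 siRNA array, -2.72 on the control siRNA array and a difference of -2.09 ± 0.31, which normexp reduced to -1.13. Kcnk5, a potassium channel gene linked to volume decrease, differed by 0.32 ± 0.21, and Piezo1, a stretch-gated channel gene, by -0.47 ± 0.20.

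Genes of cGAMP synthesis, transport and sensing had a median of 0.36, against -0.03 for all genes, with 10 of 11 measured, 2 past 2-fold upward (4.81% of all genes) and 0 downward (5.46%). Slc46a3, a lysosomal transporter gene, had a level of 2.06 on the G0s2 siRNA array and 0.08 on the control siRNA array, a difference of 1.98 ± 0.20. Tbk1, the kinase gene downstream of the cGAMP sensor, differed by 1.37 ± 0.20. Cgas, which makes cGAMP, differed by 0.30 ± 0.26, with -0.49 by its other probe, and Sting1, its sensor, by 0.35 ± 0.29. This list was the highest of the 6 medians in the reported values, and normexp lowered it to 0.16.

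Insulin and PI3 kinase signalling, to which LRRC8A has been linked through the adaptor GRB2 in fat cells, had a median of 0.04, with 9 of 10 measured and 0 past 2-fold in either direction. Grb2 differed by 0.16 ± 0.20, with 0.66 by its other probe. By brightest probe, the largest difference was that of Pik3r1, a regulatory subunit gene of PI3 kinase, at -0.81 ± 0.20. Another probe of Insr, the insulin receptor gene, gave 1.23, against 0.06 by its brightest, and another probe of the kinase gene Akt2 gave 0.84, against 0.04.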

How the data were processed

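The scanner tables hold spot intensity values that, per the file headers, the authors read with Agilent Feature Extraction 10.7.1.1, as background-subtracted, detrended processed signals. The deposited series table holds intensity values that the authors normalized by a method not given in the sources used here, with medians of 33.1 in both columns. It served as an alternative.

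Both arrays share a slide and a scan, and each has its own position, so position and group cannot be told apart. Processed signals were set to log2 minus the 75th percentile of each array (728 with G0s2 siRNA, 418 with control siRNA). Control spots and 5 probes with outlier spots were left out. No spot was saturated. The brightest probe stood for a gene where the scanner marked it well above background on 1 array or both, and names came from RefSeq of GRCm38.p6. Of 39424 probes, 26408 matched by accession, 3854 by symbol, 734 by synonym and 8428 not. A dim array entered at the lowest signal well above background, giving a bound. With 1 array per group no test was made, and their number limits the precision.

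LRRC8 genes and gene lists were chosen with earlier results of these data known. One gene of the cotransporter list is not reported here and was taken out of its counts. Genes named are the members, G0s2, the 4 closest in difference, the 2 nearest measured genes on each side of Lrrc8a, and list members past 2-fold or with a stated role. Neighbours of Lrrc8b to Lrrc8d, the marker gene Kdr and the genes Insr, Akt2, Chdh, Clcn6 and Enpp1 were named after their values were seen. Counting was tested on simulated data with planted changes above the threshold and only the scanner error as noise. That checks the arithmetic and not variation between cultures or labellings. Calculations used Python 3.11.15, numpy 2.4.6, pandas 2.3.3, statsmodels 0.14.6, and R 4.3.3 with limma 3.58.1.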

Additional observations from a re-analysis of the deposited data

How the results depend on the processing

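A difference was taken as unmoved when it changed by less than the scanner error, a yardstick that cannot stand in for replicates. Median centring, quantile normalization, loess, the authors' series table and removal of the probe position trend (span 0.3) moved no LRRC8 difference by that much. Median centring shifts all LRRC8 differences by the same amount. Both other filters on dim probes could not change them, because each measured member's brightest probe was well above background on both arrays. Spike-in centring moved all LRRC8 differences, to 4.16 for Lrrc8a, 1.83 for Lrrc8b, 1.33 for Lrrc8d and 1.85 for Lrrc8e. It put the second Lrrc8e probe at 0.23, Ttyh2 at 0.24, Wnk4 at 0.29, Akr1b3 at 0.33 and Bhmt at 0.42. These signs follow from the same amount being added to each difference, and all of them lie below its median of all genes, 1.37. The mean over probes gave 2.26 for Lrrc8a and -0.38 for Lrrc8e. Normexp (offset 50) gave -0.31 for Lrrc8b and 0.021 for Lrrc8e, and pixel medians gave -0.33 for Lrrc8d and 0.12 for Lrrc8e. Lrrc8e without the probe that shares stretches with other genes, chosen after seeing the data, gave -1.20. Causes beyond the arithmetic of the offset and the added amount were not tested.

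Genes at least 2-fold higher numbered 742 and lower 842. They numbered 378 and 515 under normexp, 12106 and 47 with spike-in centring, and 1523 and 1455 without a filter on dim probes. At a 1.5-fold threshold they numbered 1918 and 2245, and at 3-fold 176 and 236. Higher genes made up 46.8% of those past 2-fold, and 99.6% with spike-in centring. Spike-in centring moved the list medians to 1.53 for chloride channels, 1.45 for cotransporters, 1.34 for osmolyte supply, 1.24 for potassium channels and sensors, 1.79 for cGAMP genes and 1.46 for insulin signalling. Normexp gave 0.16 for cGAMP genes, and pixel medians -0.22 for insulin signalling. No paired analysis was possible because each group has 1 array. No array can be left out for the same reason.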

Other observations

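Lrrc8b, Lrrc8c and Lrrc8d are adjacent on chromosome 5 in the order of the RefSeq gene table, and the nearest measured genes before them are Gbp11 and Gbp6, which encode interferon-inducible GTPases. These genes were chosen after their values were seen. Gbp6 had a level of -2.63 on the G0s2 siRNA array and 0.08 on the control siRNA array, a difference of -2.71 ± 0.21, although its other probe gave -0.34. Gbp11 had a level of -3.75 on the G0s2 siRNA array and -2.63 on the control siRNA array, a difference of -1.13 ± 0.24. Guanylate-binding protein genes have close copies, so their separate values are uncertain. On the other side, Zfp326 differed by 0.12 ± 0.21. The LRRC8 genes between them, at 0.40 for Lrrc8b and -0.10 for Lrrc8d, stayed within 2-fold.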
